A study of Mus musculus with 6 samples.

Results

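Genes of glycolysis and of the response to low oxygen were examined in neurospheres of adult mice whose mothers had been injected with MG or with PBS. MG is taken to be methylglyoxal, which the series' title names. The list holds 35 genes by name: glucose and lactate transporters, glycolytic enzymes, regulators of flux, oxygen sensors and other hypoxia-responsive genes. Of these, 31 had a probe set that names that gene only, out of 22180 such genes on the array, and where a gene had several the one with the highest mean over the 6 arrays was read. Gpi1, Aldoa, Eno1 and Ankrd37 were not analysed here, as none of the probe sets named them alone. None of the 31 passed the test of MG against PBS, and the share of all genes that passed was 0%. Most of the 31 differed between cultures within each group. All 31 lay above the reference level of 5.02 on the log2 scale in both groups. This level is the 95th percentile of the means of 1394 olfactory and vomeronasal receptor genes.

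The animals were outbred CD1 mice with no transgene named in the labels. The PBS group is 3 cultures from offspring of females injected intraperitoneally with PBS, and the MG group is 3 cultures from offspring of females injected with MG at 0.5 mg/kg. In both groups the mothers received 2 injections a day from gestational day 12 until birth, the offspring were 2 months old, and subventricular zone cells were grown for 7 days in serum-free medium with EGF at 20 ng/ml and FGF2 at 10 ng/ml. Neurospheres are floating colonies of neural stem and progenitor cells, and RNA of whole cultures was hybridised to 1 Affymetrix Mouse Gene 2.0 ST array per culture. The sources used here do not say whether animals of a group shared a mother, so p-values measure the spread between these cultures. The sample titles call the spheres primary and the sample descriptions call them secondary.

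Glycolysis splits glucose into pyruvate through a chain of enzymes in the cytosol, and lactate dehydrogenase turns pyruvate into lactate, which leaves the cell through monocarboxylate transporters. Methylglyoxal forms as a by-product, chiefly from the triose phosphates in the middle of the chain. Most of these genes are also targets of hypoxia-inducible factor (HIF). Its alpha subunit is hydroxylated by the Egln enzymes when oxygen is present and is then degraded, so that HIF is regulated mainly at the level of protein. Neural stem and progenitor cells are known for a high rate of glycolysis.

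The cultures carried the markers of neural stem and progenitor cells. All 10 such genes measured were above the reference level, and their mean lay between 11.10 and 11.22 in the PBS cultures and between 11.12 and 11.32 in the MG cultures. Of 10 microglial genes 7, and of 8 endothelial genes 4, were at or below the reference level. So were 4 of 7 choroid plexus and ependymal genes, 1 of 7 pericyte and smooth muscle genes and 1 of 2 erythroid genes. The mean of the microglial genes was 4.81 to 4.89 in PBS and 4.75 to 4.86 in MG. The 8 neuroblast and neuron genes (6.69 to 6.85 in PBS, 6.78 to 6.99 in MG) and the 7 oligodendrocyte lineage genes (7.24 to 7.57 and 7.18 to 7.79) were above the reference level, as were 7 of 8 astrocyte genes.

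Most of the 31 genes were lowest on the arrays numbered 3, in the PBS group and in the MG group alike. These arrays were singled out because earlier results of these same data had shown them to stand apart, so the counts are a description. In 24 of the 31, or 77.4%, both arrays numbered 3 lay below all other 4 arrays. The same held for 15.7% of all genes tested and for 18.8% of the 13725 genes whose means exceeded the reference level in each group. Relative to each gene's mean over the 6 arrays, the median of the 31 genes was 0.41, 0.15 and -0.40 in PBS replicates 1, 2 and 3. It was 0.24, -0.00 and -0.40 in MG replicates 1, 2 and 3. PBS replicate 3 was the lowest PBS culture in 28 of the 31 genes and MG replicate 3 the lowest MG culture in 26, while PBS replicate 1 was the highest PBS culture in 26 and MG replicate 1 the highest MG culture in 22. The arrays numbered 3 were therefore the lowest for most of these genes, but the other 4 were graded too. Replicate 1 was above replicate 2 in both groups for 20 of the 31 genes, against 5346 of 22180 genes. No correlation over the 6 arrays is given. In RNA from whole cultures, fewer cells of a type and less RNA per cell cannot be told apart.

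**Figure D1:**
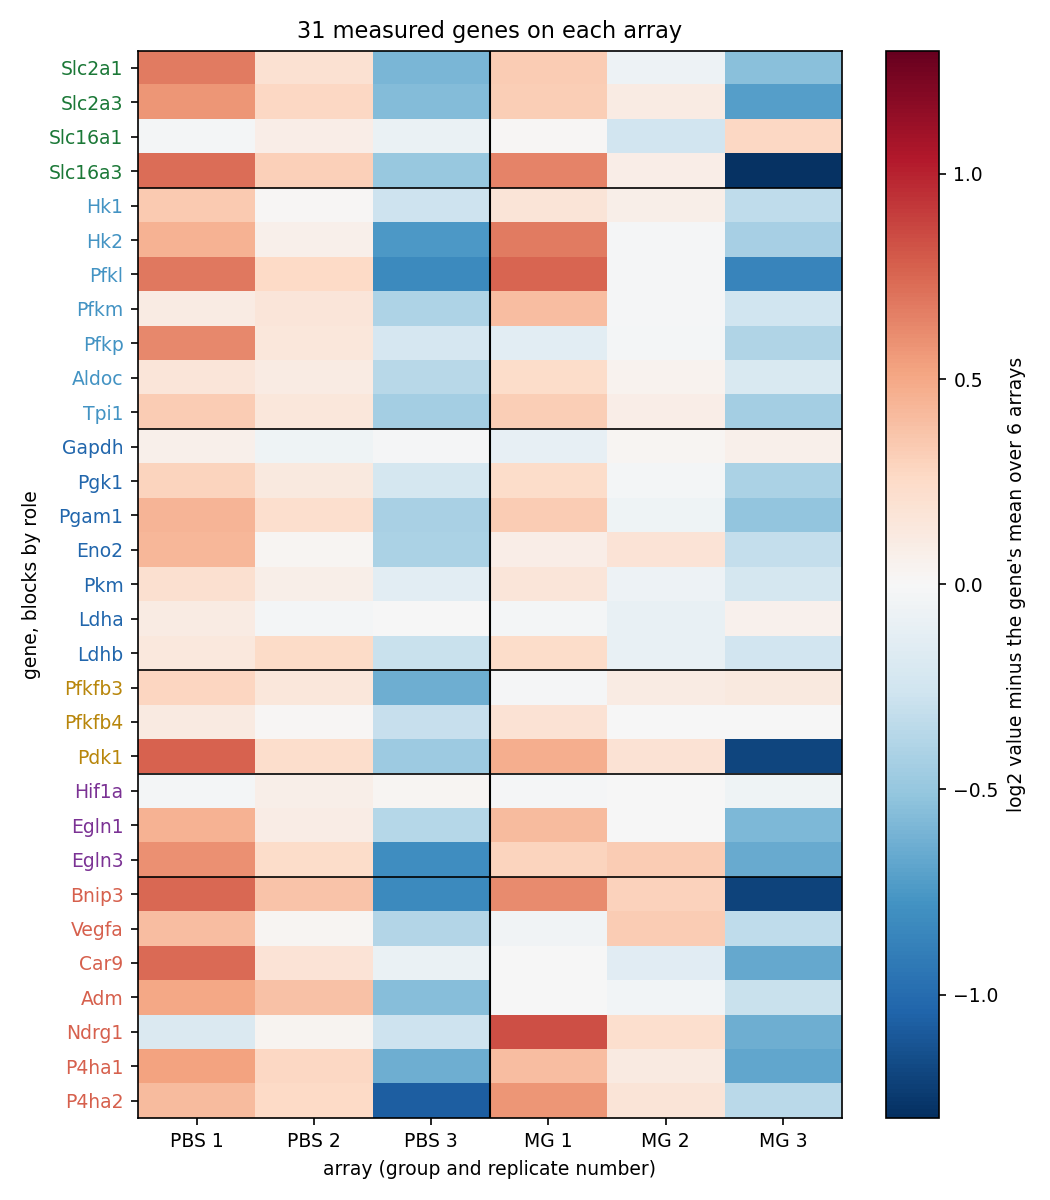
Log2 value of each of the 31 measured genes (rows, in blocks by role) on each of the 6 arrays (columns), minus the gene's mean over the 6 arrays; red is above and blue below that mean. The columns PBS 3 and MG 3 are blue for most genes, while the rows of Gapdh, Ldha and Hif1a are pale throughout.

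The distance of an array numbered 3 from the mean of the other 2 cultures of its group can be read separately in PBS and in MG, since the groups share no array. Its median over the 31 genes was -0.64 in PBS and -0.51 in MG on the log2 scale, against -0.02 and -0.02 over all genes. It was below 0 in both groups for 26 of the 31 genes (83.9%) and for 34.0% of all genes. Across the 31 genes the PBS and the MG distances had a Pearson correlation of 0.68, while the correlation was 0.62 across the 13725 genes above the reference level in each group and 0.45 across all 22180 genes. These are correlations across genes, which are not independent replicates, and they describe 1 array of each group. The spread within groups was wider for the 31 genes than for genes at large. The median standard deviation within a group was 0.39 for the 31 genes and 0.19 for all genes.

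**Figure D2:**
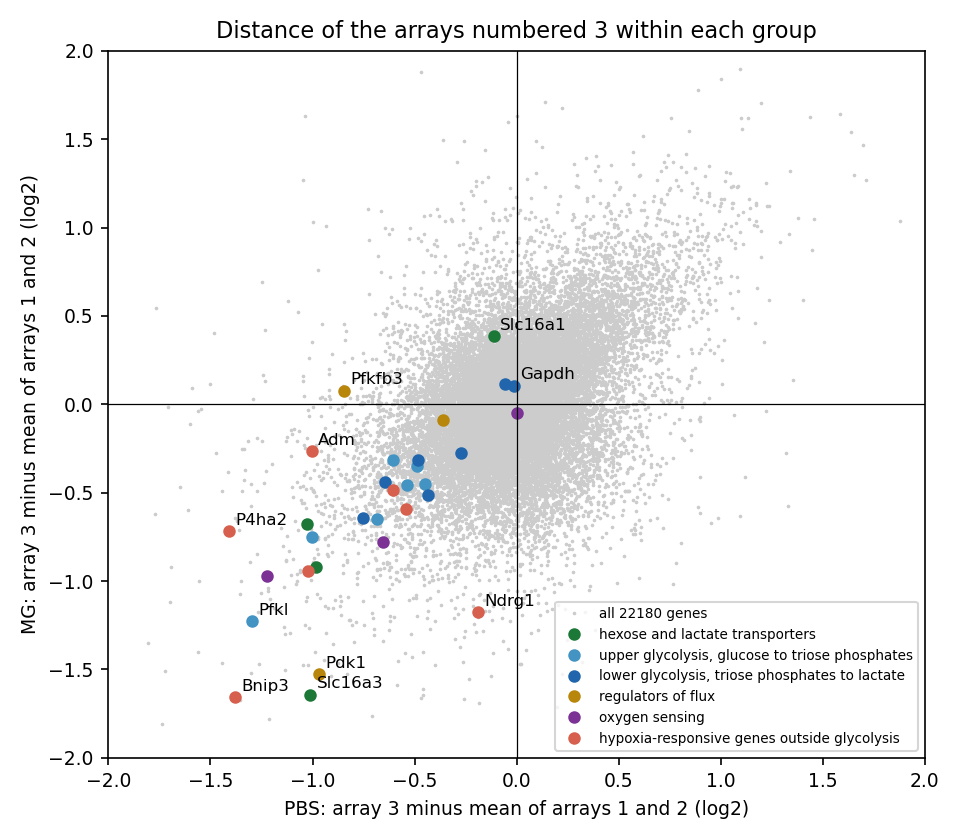
For each gene, the log2 value on array 3 minus the mean of arrays 1 and 2, in PBS (horizontal) and in MG (vertical); coloured points are the 31 genes by role, grey points are all 22180 genes tested, of which those beyond 2 log2 units are not shown. Most coloured points lie at the lower left, with Bnip3, Slc16a3, Pfkl and Pdk1 farthest out, while Gapdh and Slc16a1 lie near or above 0.

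Genes of DNA replication and mitosis stood the other way on the same arrays. All 17 replication genes and all 14 mitosis genes measured were higher on both arrays numbered 3 than on the other 4, which held for 15.7% of all genes. Relative to each gene's mean, the replication genes averaged 0.43 on array 3 of the PBS group, 0.46 on array 3 of the MG group, and -0.41 to -0.11 elsewhere. The mitosis genes averaged 0.33 on each array numbered 3 and -0.36 to -0.06 elsewhere. Astrocyte markers, 8 genes in all, had means of -0.36 in PBS replicate 3 and -0.35 in MG replicate 3, against -0.06 to 0.29 in the other cultures, and 5 of the 8 were lowest on both arrays numbered 3. Oligodendrocyte lineage genes averaged -0.18 and -0.25 on the arrays numbered 3 and -0.06 to 0.36 elsewhere, and 3 of the 7 were lowest on both. Endothelial genes averaged -0.15 and -0.18 on the arrays numbered 3 and -0.02 to 0.16 elsewhere, and 2 of the 8 were lowest on both. Pericyte and smooth muscle genes averaged -0.12 and -0.14 there and -0.03 to 0.14 elsewhere, but 0 of the 7 were lowest on both. Over all genes 15.7% were lowest on both. The means of these marker lists thus stood lower on the arrays numbered 3, though many of their genes did not follow. Neural stem and progenitor genes averaged 0.04 in PBS replicate 3 and 0.14 in MG replicate 3, with 0 of 10 lowest on both. Neuroblast and neuron genes averaged -0.02 and -0.05 there, with 1 of 8 lowest on both. The part of these lists in the values of the glycolytic genes was not tested.

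**Figure D3:**
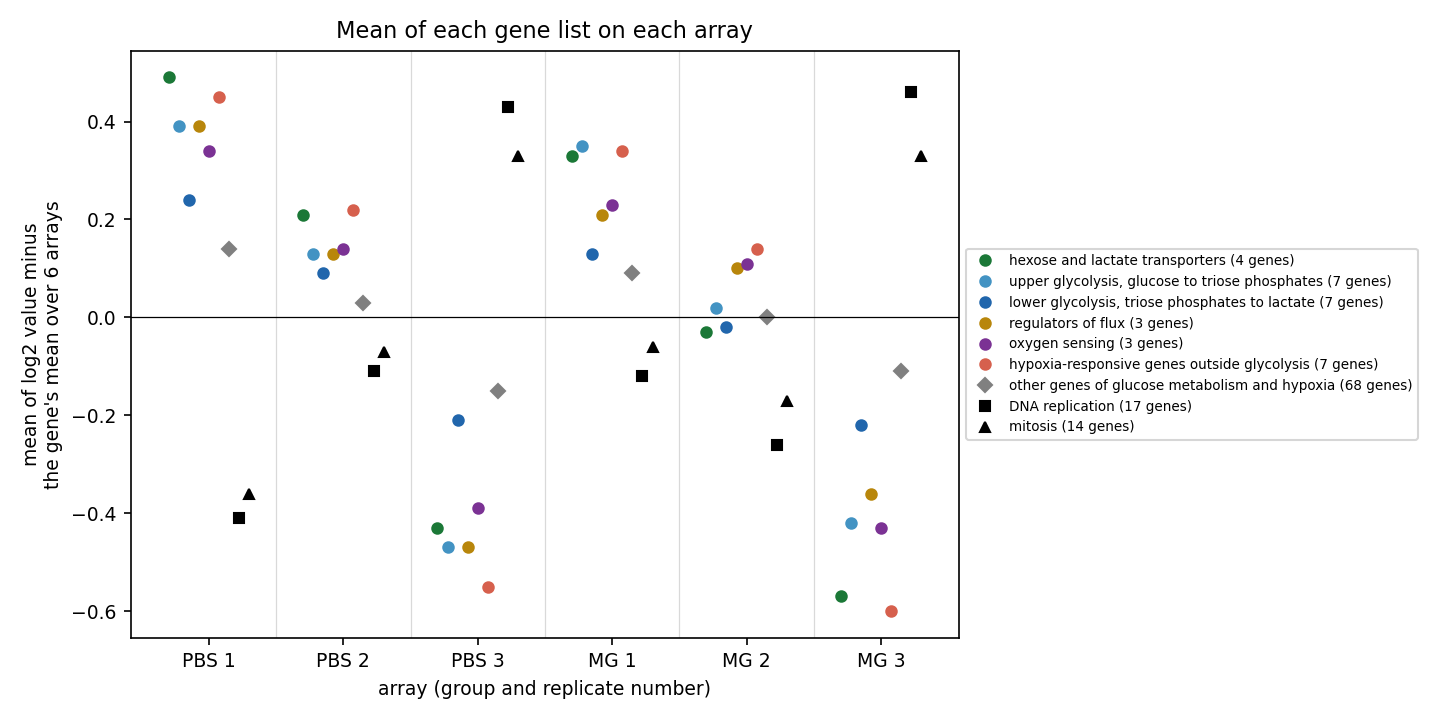
Mean over the genes of each list of the log2 value minus the gene's mean over 6 arrays, for each array; coloured circles are the 31 genes by role, grey diamonds the 68 other genes of glucose metabolism and hypoxia, black squares and triangles DNA replication and mitosis genes. On both arrays numbered 3 the coloured circles lie between -0.60 and -0.21 and the black symbols between 0.33 and 0.46.

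The core of the DNA element bound by HIF is short, and the promoters of these genes were searched for it. RefSeq (GRCm38.p6) promoter windows of 250 bases upstream of a transcription start were matched by symbol for 29 of the 31 genes, in 39 windows. ACGTG or GCGTG, on either strand, was found in 32 of the 39 windows (82.1%) and in 38.6% of all 32851 windows of that length. The genes were listed partly because they are known to respond to hypoxia, so a higher share is not independent of that choice. The windows of the 31 genes were also richer in G and C, with a median of 60.4% against 52.4% in all windows. No comparison with windows of like G and C content was made. ACGTG alone was in 51.3% of them and in 16.6% of all windows, and GCGTG in 56.4% and 28.2%. The E-box CACGTG, which contains ACGTG on both strands and is counted there, was in 15.4% and 6.02%. A window with the core belonged to 27 of the 29 genes, and only Eno2 and Tpi1 had none. Eno2 and Tpi1 were lowest on both arrays numbered 3, as were 20 of the 27 genes with the core. Sequence outside the 250 bases upstream of a start was not searched. A match of these letters describes the sequence and is not a binding site.

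The windows of 7 genes are printed, chosen after the values were seen among genes with a single window. Bnip3, Slc16a3, Pfkl and Egln3 had the greatest distance of the arrays numbered 3, averaged over both groups, at -1.52, -1.33, -1.26 and -1.10. Hif1a, Gapdh and Slc16a1 had the distances nearest 0, at -0.02, 0.04 and 0.14. The sequences run 5′ to 3′ on the gene's strand and end at the base before the start, with each core in capitals. Both sets hold the core, from 1 to 5 positions per window in the first and from 2 to 4 in the other. Since 27 of the 29 genes with a window hold it, these 7 windows cannot show whether its presence goes with the distance.
Bnip3 (chr7:138909507-138909756, minus strand): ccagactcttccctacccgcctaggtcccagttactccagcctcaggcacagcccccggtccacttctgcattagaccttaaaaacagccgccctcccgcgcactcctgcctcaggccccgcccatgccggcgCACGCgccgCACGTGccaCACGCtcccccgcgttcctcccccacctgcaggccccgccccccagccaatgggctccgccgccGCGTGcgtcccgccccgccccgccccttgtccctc
Slc16a3 (chr11:120948817-120949066, plus strand): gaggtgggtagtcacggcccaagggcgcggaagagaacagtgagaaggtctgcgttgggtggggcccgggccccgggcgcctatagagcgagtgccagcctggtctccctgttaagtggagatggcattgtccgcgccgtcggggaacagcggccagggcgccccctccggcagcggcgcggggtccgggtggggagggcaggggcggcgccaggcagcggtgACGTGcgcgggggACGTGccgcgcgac
Pfkl (chr10:78009808-78010057, minus strand): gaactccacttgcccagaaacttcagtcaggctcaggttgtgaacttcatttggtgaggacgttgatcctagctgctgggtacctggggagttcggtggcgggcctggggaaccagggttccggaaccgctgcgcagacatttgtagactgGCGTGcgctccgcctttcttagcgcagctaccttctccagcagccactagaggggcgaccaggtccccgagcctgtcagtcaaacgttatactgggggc
Egln3 (chr12:54203875-54204124, minus strand): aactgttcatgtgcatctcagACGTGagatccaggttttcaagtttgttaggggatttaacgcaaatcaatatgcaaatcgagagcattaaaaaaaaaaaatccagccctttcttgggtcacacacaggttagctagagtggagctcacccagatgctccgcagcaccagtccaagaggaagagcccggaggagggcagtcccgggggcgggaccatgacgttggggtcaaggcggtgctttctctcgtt
Hif1a (chr12:73907617-73907866, plus strand): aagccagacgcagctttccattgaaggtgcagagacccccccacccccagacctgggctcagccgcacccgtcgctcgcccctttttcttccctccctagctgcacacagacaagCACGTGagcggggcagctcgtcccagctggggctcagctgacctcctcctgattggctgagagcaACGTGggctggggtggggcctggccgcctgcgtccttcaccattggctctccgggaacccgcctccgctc
Gapdh (chr6:125165774-125166023, minus strand): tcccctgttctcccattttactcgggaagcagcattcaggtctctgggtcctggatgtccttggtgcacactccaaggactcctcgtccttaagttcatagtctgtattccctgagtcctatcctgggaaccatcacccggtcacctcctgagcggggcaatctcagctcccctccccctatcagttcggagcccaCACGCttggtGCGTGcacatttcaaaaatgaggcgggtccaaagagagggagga
Slc16a1 (chr3:104638414-104638663, plus strand): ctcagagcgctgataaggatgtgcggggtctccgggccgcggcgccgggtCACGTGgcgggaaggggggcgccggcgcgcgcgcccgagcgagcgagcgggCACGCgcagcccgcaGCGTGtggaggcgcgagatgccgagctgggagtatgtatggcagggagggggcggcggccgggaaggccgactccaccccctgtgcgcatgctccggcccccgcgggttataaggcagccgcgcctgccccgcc

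The glucose transporters and the lactate exporter Slc16a3 followed the pattern, and Slc16a1 did not. Slc2a1, the transporter that brings glucose into most cells, had log2 values of 11.44, 10.96 and 10.17 in PBS replicates 1, 2 and 3, and 11.10, 10.70 and 10.22 in MG. Slc2a3, the high-affinity glucose transporter typical of neurons, had 9.26, 8.95 and 8.12 in PBS, and 9.0, 8.79 and 7.97 in MG. Slc16a3, the monocarboxylate transporter of cells that export lactate, had 9.01, 8.59 and 7.79 in PBS, and 8.92, 8.37 and 7.00 in MG. In all 3 genes the arrays numbered 3 were the lowest of the 6 and the ranges of the groups overlapped. For Slc16a3 the arrays numbered 3 were 2.51-fold lower than the others, averaged over both groups. Slc16a1, a monocarboxylate transporter that carries lactate in either direction, had 9.95, 10.06 and 9.89 in PBS, and 9.99, 9.73 and 10.25 in MG, where replicate 3 was the highest culture of its group.

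All 7 measured genes of upper glycolysis, from hexokinase to triose phosphate isomerase, had both arrays numbered 3 below the other 4. Pfkl, the liver-type subunit of phosphofructokinase, the committing step, spread widest, with 10.40, 9.97 and 8.89 in PBS, and 10.47, 9.70 and 8.86 in MG. The muscle-type subunit gene Pfkm had 9.01, 9.06 and 8.50 in PBS, and 9.30, 8.88 and 8.64 in MG. The platelet-type subunit gene Pfkp had 9.89, 9.41 and 9.05 in PBS, and 9.13, 9.24 and 8.87 in MG. The 3 subunit genes thus shared the direction but not the size: averaged over both groups, the distance of the arrays numbered 3 was -1.26 for Pfkl, -0.50 for Pfkm and -0.46 for Pfkp. Hk2, the hexokinase gene that responds to hypoxia, had 8.38, 7.99 and 7.18 in PBS, and 8.60, 7.91 and 7.50 in MG, a distance of -0.88. Hk1, the hexokinase gene expressed broadly in brain, ranged less, between 7.72 and 8.39, with a distance of -0.45. Tpi1, which interconverts the triose phosphates from which methylglyoxal forms, had 11.63, 11.44 and 10.85 in PBS, and 11.62, 11.38 and 10.85 in MG, so that cultures of the same number were nearly equal. Aldoc, the aldolase of brain, lay between 11.91 and 12.51, with a distance of -0.42.

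In lower glycolysis, 5 of the 7 measured genes had both arrays numbered 3 below the others, and the exceptions were Gapdh and Ldha. Pgam1, phosphoglycerate mutase, had 11.51, 11.29 and 10.65 in PBS, and 11.40, 11.02 and 10.56 in MG. Pgk1, phosphoglycerate kinase, had 12.67, 12.50 and 12.15 in PBS, and 12.62, 12.35 and 11.97 in MG. Eno2, the neuronal enolase, lay between 7.25 and 8.10. Pkm, pyruvate kinase, lay between 12.33 and 12.76 and had a distance of only -0.27, and Ldhb, the lactate dehydrogenase subunit common in oxidative tissue, lay between 8.98 and 9.52 with -0.40. Gapdh, the dehydrogenase often used as a reference gene, stayed between 13.09 and 13.26 on all 6 arrays. Its other own probe sets lay between 13.03 and 13.20 and between 8.86 and 9.27, and 8 more probe sets shared with Gapdh-like genes were not read. Ldha, the subunit favoured in glycolytic cells and a classic HIF target, stayed between 7.08 and 7.29, a range of 0.21. In Gapdh and Ldha neither array numbered 3 stood apart from the rest. The Gapdh values lay near 13.81, the highest value of any probe set. Ldha was read with its only own probe set, which was dimmer than that of Ldhb. Whether these probe sets could show a change like that of the other genes was not tested.

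Among regulators of flux, Pdk1 followed the pattern, while for the Pfkfb genes PBS replicate 3 was low and MG replicate 3 was not. Pdk1, the kinase that restrains entry of pyruvate into the mitochondrion, had 9.91, 9.37 and 8.67 in PBS, and 9.61, 9.33 and 7.95 in MG, which places the arrays numbered 3 lower by 2.37-fold. Pfkfb3 makes fructose 2,6-bisphosphate, the activator of phosphofructokinase. It had 7.50, 7.36 and 6.58 in PBS, and 7.20, 7.32 and 7.34 in MG, where all 3 cultures were nearly equal. Pfkfb4, a related enzyme, had 6.48, 6.38 and 6.07 in PBS, and 6.55, 6.36 and 6.36 in MG. Whether PBS and MG differ in this was not tested, since it rests on 1 culture of each group.

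The transcript of Hif1a, the oxygen-regulated subunit of HIF, was nearly constant while those of its regulators varied. Hif1a had 9.77, 9.87 and 9.82 in PBS, and 9.78, 9.79 and 9.74 in MG, a range of 0.13. Another, dimmer probe set for Hif1a had 6.21, 6.09 and 5.70 in PBS, and 6.18, 6.10 and 5.97 in MG, so the probe sets disagree on the arrays numbered 3. Egln3, a HIF prolyl hydroxylase that is itself induced by HIF, had 10.86, 10.51 and 9.46 in PBS, and 10.56, 10.60 and 9.61 in MG. Egln1, the main HIF prolyl hydroxylase, had 11.0, 10.64 and 10.17 in PBS, and 10.95, 10.54 and 9.96 in MG. Both Egln genes were lowest on the arrays numbered 3, by 2.14-fold for Egln3 and 1.64-fold for Egln1.

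The hypoxia-responsive genes outside glycolysis included the gene with the widest distance, Bnip3. Bnip3, a mitochondrial receptor for mitophagy, had 9.74, 9.36 and 8.17 in PBS, and 9.61, 9.29 and 7.79 in MG, and the arrays numbered 3 were 2.87-fold lower. P4ha1, a subunit of the collagen prolyl hydroxylase, had 10.38, 10.13 and 9.23 in PBS, and 10.26, 9.98 and 9.18 in MG. P4ha2, which encodes an alternative subunit of that enzyme, had 6.48, 6.33 and 5.0 in PBS, and 6.64, 6.24 and 5.72 in MG, of which PBS replicate 3 was just below the reference level. In these 3 genes both arrays numbered 3 lay below the other 4. Vegfa, the angiogenic growth factor, had 11.73, 11.35 and 10.94 in PBS, and 11.28, 11.66 and 10.99 in MG. Adm, the vasoactive peptide adrenomedullin, had 9.45, 9.33 and 8.39 in PBS, and 8.94, 8.91 and 8.66 in MG. Both had their lowest values on the arrays numbered 3, with a smaller distance for Adm in MG (-0.26) than in PBS (-1.0), a contrast that was not tested.

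Car9 had the lowest and Ndrg1 the highest log2 difference of MG from PBS among the 31 genes, and neither passed the test. Car9, a membrane carbonic anhydrase and a sensitive HIF target, had 6.85, 6.30 and 6.03 in PBS, and 6.11, 5.97 and 5.45 in MG, so that only MG replicate 1 reached into the PBS range. The PBS mean was 6.39 ± 0.42 (SD, n = 3). The MG mean was 5.84 ± 0.35 (SD, n = 3). The log2 difference was -0.55 (standard error 0.25). The unadjusted p of 0.0556 was the lowest among the 31 genes, and the adjusted p was 0.9998 (limma, Benjamini-Hochberg over all genes). The log2 difference was -0.32 without PBS replicate 1, -0.35 without MG replicate 3 and -0.23 when the probe sets of a gene were averaged. Another Car9 probe set, dimmer, had means that differed by 0.08 the other way. Ndrg1, a gene induced by hypoxia and by differentiation, had 9.07, 9.29 and 8.99 in PBS, and 10.10, 9.48 and 8.62 in MG. Its MG cultures thus held both the highest and the lowest value of the 6, and the log2 difference of 0.28 had a 95% confidence interval from -0.47 to 1.04. Without MG replicate 1 it was -0.07, and without MG replicate 3 it was 0.67.

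MG was compared with PBS to ask whether prenatal methylglyoxal left a difference in these genes in adult offspring cells. None of the 31 genes, and none of all 22180 genes, passed the adjusted threshold of 0.05 in limma's moderated test. None had an unadjusted p under 0.05, against 3.21% of all genes, and none had groups that did not overlap, against 7.34%. The MG mean was lower in 23 of the 31 genes (46.2% of all genes), and the median log2 difference was -0.06, against 0.01 for all genes. Both values turn on single cultures. Without PBS replicate 1 the MG mean was lower in 10 of 31 genes (median 0.10) and without MG replicate 3 in 8 (median 0.12). Without PBS replicate 3 it was lower in 30 (median -0.25), and without both arrays numbered 3 in 25 (median -0.10). The per-array median of the 31 genes varied within groups by a standard deviation of 0.37, several times the difference between the groups.

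**Figure D4:**
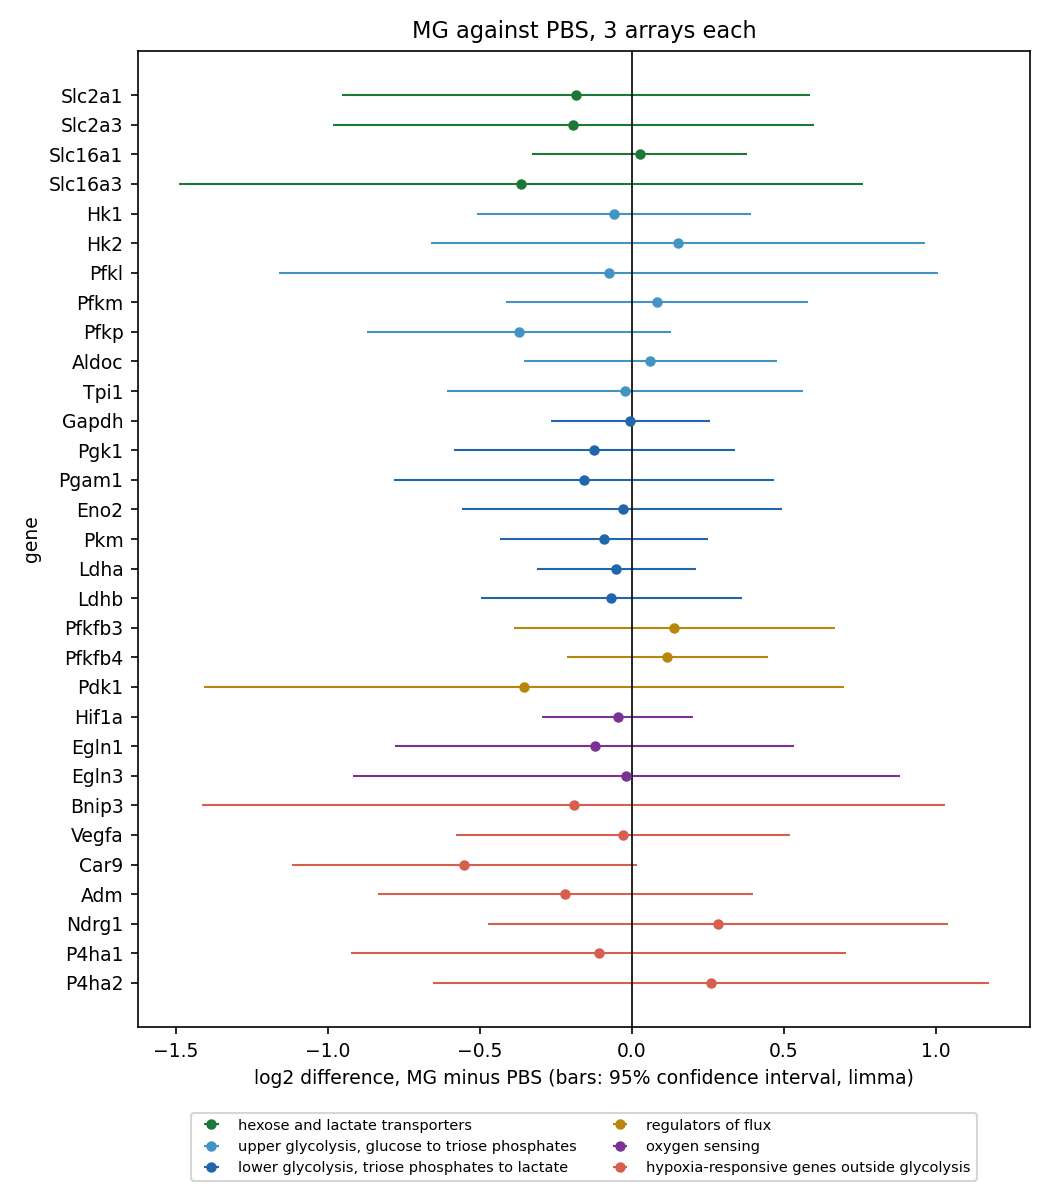
Log2 difference of MG minus PBS for each of the 31 genes (points, coloured by role) with its 95% confidence interval from limma (bars), 3 arrays per group. Every interval includes 0, from the narrow one of Hif1a (-0.30 to 0.20) to the wide one of Bnip3 (-1.41 to 1.03).

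The median half-width of the 95% confidence interval was 0.57 for the 31 genes and 0.35 for all genes. For Hif1a, Ldha and Gapdh, the genes that varied least, the log2 differences were -0.05, -0.05 and -0.00, and the bound farthest from 0 was -0.31, for Ldha. For Bnip3 the difference was -0.19 with a standard error of 0.53, for Pfkl -0.08 (0.47) and for Pdk1 -0.35 (0.46). Another Pdk1 probe set, with a mean of 4.33 and so below the reference level, differed by 0.07 the other way. The Pdk1 difference was -0.14 when its probe sets were averaged. By role, the median log2 difference was -0.19 for the 4 transporters, -0.02 for upper and -0.07 for lower glycolysis, 0.12 for the 3 regulators of flux, -0.05 for oxygen sensing and -0.11 for the other 7 hypoxia-responsive genes. Each of these medians turned sign when 1 array was left out. Their ranges were -0.52 to 0.08 for the transporters, -0.21 to 0.19 for upper and -0.23 to 0.04 for lower glycolysis, -0.14 to 0.20 for the regulators, -0.34 to 0.14 for oxygen sensing and -0.45 to 0.21 for the other hypoxia-responsive genes. Without both arrays numbered 3 the median of the regulators was -0.17. Pfkp, with a log2 difference of -0.37 (standard error 0.22, unadjusted p = 0.125 in limma), had the next lowest p after Car9. Without PBS replicate 1 its difference was -0.15, and without PBS replicate 3 it was -0.57.

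**Figure D5:**
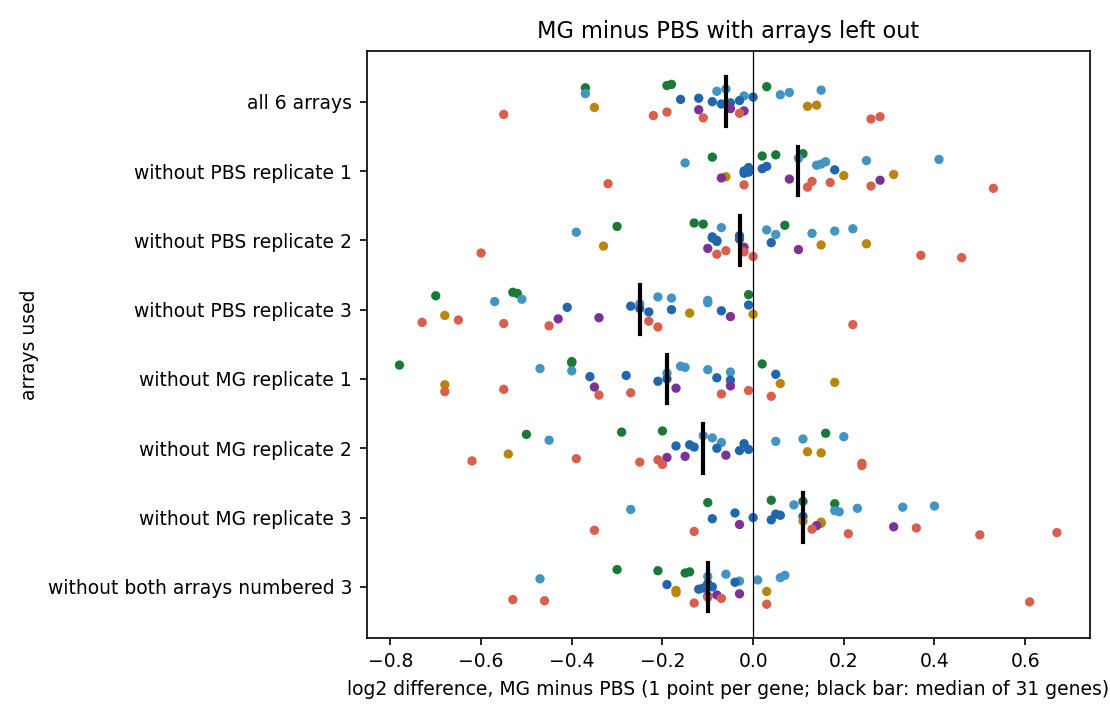
Log2 difference of MG minus PBS for each of the 31 genes (points, coloured by role as in the other plots) with all 6 arrays, with each array left out in turn and without both arrays numbered 3; black bars are medians. The lowest median, -0.25, came without PBS replicate 3 and the highest, 0.12, without MG replicate 3.

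A further list of 76 genes of glucose metabolism and hypoxia, of which 68 were measured, stood between the members and all genes. Both arrays numbered 3 were below the other 4 in 28 of the 68 (41.2%). Ppp1r3c, which promotes glycogen synthesis, had 9.40, 9.30 and 8.10 in PBS, and 9.57, 9.27 and 8.35 in MG. Higd1a, a mitochondrial protein induced by hypoxia, had 8.65, 8.09 and 7.35 in PBS, and 8.66, 8.21 and 7.17 in MG. Other listed genes went the opposite way. Cited2, a HIF-induced protein that restrains HIF, had 9.55, 9.14 and 10.09 in PBS, and 8.45, 9.32 and 10.08 in MG, with both arrays numbered 3 highest. Arnt, the partner subunit of the HIF alpha subunits, had 8.94, 8.93 and 9.27 in PBS, and 8.88, 8.91 and 9.25 in MG. These 4 were chosen after their values were seen.

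In the comparison of MG with PBS, none of the 68 passed the adjusted threshold, and 2 (Gpd1 and Aldoart1) had an unadjusted p under 0.05, against 3.21% of all genes. Groups did not overlap in 5 of the 68, against 7.34% of all genes. MG means were lower in 35, against 46.2% of all genes, and higher in 33, with a median log2 difference of -0.02. The smallest p with a higher MG mean was that of Gpd1, cytosolic glycerol-3-phosphate dehydrogenase, which draws on a triose phosphate. It had 7.82, 8.04 and 7.98 in PBS, and 8.31, 8.22 and 8.54 in MG, and the groups did not overlap. It differed by 0.41 on the log2 scale (standard error 0.13, unadjusted p = 0.0145, adjusted p = 0.9998 in limma). Arnt2, a relative of Arnt, differed by 0.20 and the creatine transporter gene Slc6a8 by 0.22, or by 0.10 without MG replicate 3. On the lower side, Pgm2, a phosphoglucomutase-family gene, differed by -0.17 and the muscle fructose bisphosphatase gene Fbp2 by -0.24. Without PBS replicate 1 the difference of Fbp2 was -0.13, and without MG replicate 3 it was -0.10. Aldoart1, an aldolase retrogene closely similar to Aldoa, was below the reference level in both groups, so no difference is given for it.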

How the data were processed

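The authors deposited log2 values for 41345 probe sets on each array, which range from 0.73 to 13.81. Per the submitters' processing notes they used Partek 6.6. Their background correction, normalisation and summarisation were not stated in the labels or file used here, and their range is the basis for calling the values log2. Array medians lay between 5.25 and 5.42. For arrays, their number limits the precision.

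Probe sets were named through the platform annotation: 23521 named 1 gene, 1814 several, and 16010 were unnamed here. MG was compared with PBS over 22180 genes with limma 3.58.1 in R 4.3.3 (lmFit, eBayes, no covariate, two-sided), with Benjamini-Hochberg adjustment over all genes and a threshold of 0.05. Dim genes were kept. On simulated data with 200 of 22180 genes changed 4-fold, 94.1% were recovered, with a mean of 9.4 false calls over 10 runs. The noise was drawn separately for each gene and array, so variation that many genes share on an array, as on those numbered 3, was not simulated. Only a 4-fold change was simulated, while the largest difference among the measured members, that of Car9, was 1.47-fold. The simulation therefore cannot show how often a change of that size would be found. Distances of arrays numbered 3 are descriptions with no test. Figures were drawn with matplotlib 3.10.9.

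The members, gene lists and tests were chosen with earlier results of these data known. All measured members are named. Of the further glucose and hypoxia genes, the rule names those past the adjusted threshold and the 3 with the smallest p per direction. The comparison was repeated with dim genes filtered, with all or averaged probe sets, after quantile normalisation or median centring, with other moderation or array weights, with a replicate block, and with arrays left out. Microglial, endothelial, pericyte, choroid plexus, erythroid, neuronal, oligodendrocyte and astrocyte markers were read as lists.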

Additional observations from a re-analysis of the deposited data

How the results depend on the processing

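The adjusted threshold was passed by 0 genes in every setting, among the 31 genes or among all genes tested, and at an unadjusted p under 0.05 limma gave 712 of 22180 genes. The count of the 31 genes with an unadjusted p under 0.05, 0 with all arrays, was 1 with quantile normalisation, median centring or array weights (Car9 each time), 2 with the replicate block, 4 without both arrays numbered 3 (Pfkp, Car9, Adm and Ndrg1), and 0 to 3 with 1 array left out: 3 without PBS replicate 3 (Pfkp, Car9 and Adm), 1 without MG replicate 1 (Car9) and 1 without MG replicate 3 (Ndrg1). The share of all genes with such a p was 3.15% with quantile normalisation, 3.2% with median centring, 5.24% with array weights, 4.79% with the replicate block, 4.81% without both arrays numbered 3, and 1.88% to 4.31% with 1 array left out. The count with a lower MG mean ran from 8 to 30 and the median log2 difference from -0.25 to 0.12 with 1 array left out. The labels name no pairs, so the main fit did not use the replicate numbers as such. Deviations from the group means correlated at 0.218, 0.0402 and 0.447 across all genes for cultures numbered 1, 2 and 3. PBS replicates 1 and 2 each correlated best with an MG culture of another number. As a block the replicate numbers gave Car9 an unadjusted p of 0.00424 and Pfkp one of 0.0485 (adjusted p = 0.9992 for both, limma). The block gave standard errors of 0.124 for Bnip3, 0.126 for Pfkl and 0.157 for Pdk1, in place of 0.529, 0.47 and 0.456. That of Slc16a1 did not fall, at 0.156 in place of 0.153. Both arrays numbered 3 were lowest in 24 to 26 of the 31 genes under quantile normalisation, median centring and averaged probe sets.

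Of 406 values of 37 single genes in settings other than 1 array left out, 400 kept their direction and none passed the threshold. Many of these values could not turn. Filtering of dim genes, other moderation, the replicate block and the fit of all probe sets leave the log2 difference itself unchanged. Averaging changes it only for genes with several probe sets. The 400 therefore overstate how stable the directions are. The cause was not tested for the 6 that turned sign: Slc16a1 (-0.10 with array weights, -0.14 without both arrays numbered 3), Pfkfb3 (-0.02 and -0.17 in the same settings), Gapdh (0.04 with quantile normalisation) and Hif1a (0.02 with averaged probe sets). With 1 array left out, 25 of the 31 genes turned sign at least in 1 fit. Ranges were Slc2a1 -0.53 to 0.11, Slc2a3 -0.52 to 0.11, Slc16a1 -0.10 to 0.16, Slc16a3 -0.78 to 0.18, Hk1 -0.21 to 0.10, Hk2 -0.18 to 0.41, Pfkl -0.51 to 0.33, Pfkm -0.10 to 0.23, Aldoc -0.10 to 0.18, Tpi1 -0.25 to 0.19, Gapdh -0.04 to 0.05, Pgk1 -0.28 to 0.05, Pgam1 -0.41 to 0.06, Eno2 -0.25 to 0.18, Ldhb -0.23 to 0.04, Pfkfb3 -0.14 to 0.31, Pfkfb4 -0.00 to 0.20, Pdk1 -0.68 to 0.15, Egln1 -0.35 to 0.14, Egln3 -0.43 to 0.31, Bnip3 -0.65 to 0.36, Vegfa -0.23 to 0.17, Ndrg1 -0.07 to 0.67, P4ha1 -0.45 to 0.21 and P4ha2 -0.21 to 0.53.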
